A study of Mus musculus with 21 samples.

Results

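Peritoneal macrophages from mice labelled Bgn-/- were compared with wild-type macrophages after stimulation with lipopolysaccharide (LPS), at the level of the transcriptome. The comparison rests on 4 of the 21 RNA sequencing libraries of the series, chosen by their labels alone: 2 labelled Bgn-/- with LPS, one without added protein and one with recombinant biglycan, set against 2 from wild type with the same treatments. Each labelled Bgn-/- library was paired with the wild-type library of the same protein treatment. All cells were CD11b+ cells from the unelicited peritoneal cavity of C57BL/6 animals, selected with a kit and kept in culture overnight. The Bgn-/- animals are given as homozygous or, since Bgn is X-linked, hemizygous, and the labels name 10 mice without saying how these were divided or pooled. Neither the deleted part of Bgn nor the origin of the allele is given in the sources used here. LPS was given at 100 ng/mL for 6 h, and biglycan at 10 µg/mL from 1 h before it. For comparison, 4 libraries of the same genotypes and protein treatments had received 1 µM CpG DNA for 6 h in place of LPS. A further wild-type library, given lumican before LPS, served as a wild-type value outside the fit.

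Biglycan is a small leucine-rich proteoglycan of the extracellular matrix. When set free from the matrix, it is known to act on macrophages through TLR2 and through TLR4, the receptor of LPS, and so to add to inflammatory signalling. LPS is bound by CD14 and by the TLR4 partner MD-2 (gene Ly96), and TLR4 signals through MyD88 and TRIF to NF-kB and interferon regulatory factors, whereas CpG DNA acts through TLR9 and MyD88. The unelicited peritoneal cavity holds mainly large GATA6-dependent macrophages, with fewer monocyte-derived macrophages, B cells and mast cells.

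The targeted gene went against the label. Bgn (ENSMUSG00000031375, chromosome X, 73483602 to 73495933) was measured in both labelled Bgn-/- libraries, at 0.758 and 1.18 TPM in the labelled Bgn-/- libraries, against 0.330 and 0.327 TPM in wild type. Both labelled Bgn-/- values lay above both wild-type values, although the difference of 0.56 ± 0.20 on the log2(TPM + 1) scale missed the threshold (limma, adjusted p = 0.346). Lum (ENSMUSG00000036446, chromosome 10, 97565128 to 97572703), the gene of the related proteoglycan lumican, was at 0.105 and 0.134 TPM in the labelled Bgn-/- libraries, against 1.40 and 0.718 TPM in wild type, and its mean was under the 1 TPM needed for testing. In libraries labelled Lum-/-, Lum stood at 14.1 TPM with LPS and 12.0 TPM with lumican and LPS, and Bgn at 0.0322 and 0 TPM. Under CpG, Bgn was at 3.49 and 3.03 TPM in the labelled Bgn-/- libraries, against 0.961 and 0.542 TPM in wild type. That CpG difference of 1.29 ± 0.20 was called (limma, adjusted p = 0.0479). The directions below are therefore those of the libraries as labelled, and since both labelled Bgn-/- libraries are concerned, no value can be given without them. Low Lum beside measurable Bgn is the pattern that a Lum-/- label would carry. Whether the 2 knockout labels were exchanged cannot be told from these files, so every difference below may belong to Lum-/- cells instead. Because each genotype was prepared as its own cells, genotype and cell preparation cannot be told apart.

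TPM, a transcript's share of its library per unit of length, keeps no depth, so the number of reads behind each value is unknown. The 4 libraries had 10634 and 10852 genes at or above 1 TPM in the labelled Bgn-/- libraries and 10671 and 10798 in wild type. The 260/280 absorbance ratios of the RNA were 2.09 and 2.12 in the labelled Bgn-/- samples, against 2.2 and 2.19 in wild type, and the 260/230 ratios were 2.63 and 2.7, against 4.91 and 3.34. Ddx3y, a Y-linked gene looked up after its values were seen, averaged 13.2 TPM in the labelled Bgn-/- libraries and 13.4 TPM in wild type. Of the 15 large peritoneal macrophage markers, 13 were above 1 TPM in all 4 libraries, Adgre1 (the F4/80 antigen) among them at 584 and 551 TPM in the labelled Bgn-/- libraries, against 632 and 578 TPM in wild type. The label as macrophages was thus borne by its markers, with Gata6 at 2.43 and 3.48 TPM in the labelled Bgn-/- libraries, against 3.13 and 3.63 TPM in wild type and Rarb at 0 in all 4.

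Of 11551 genes tested, 56 (0.485%) differed between the labelled Bgn-/- and wild-type libraries under LPS at an adjusted p under 0.05 by limma, 13 (0.113%) of them higher and 43 (0.372%) lower in the labelled Bgn-/- libraries. This split moved with the setting, to 7 higher and 29 lower with no protein term and 51 higher and 114 lower with the 14 libraries given LPS or CpG. It was 2 higher and 10 lower with the 4 LPS libraries alone, and 3 higher and 15 lower with the most abundant transcript per gene. No gene was called with no filter on low values or with all 21 libraries. Leaving out an LPS library leaves a single pair under LPS, and the spread then comes from the CpG libraries alone. A call kept on a single pair is therefore no separate check, and only the loss of a call is stated below. Among genes with a proper symbol, those with a difference below -2 on the log2(TPM + 1) scale were 5 protease genes of mast cells, the histidine ammonia-lyase gene Hal and Tph1, and the alternative activation marker Retnla had a difference of -1.45. The higher genes included the fatty acid binding protein gene Fabp7, the collagen cross-linking enzyme gene Loxl2 and the metallothionein gene Mt2. The lists of inflammatory cytokines and of antiviral interferon-stimulated genes, which LPS is known to induce, held no called gene. Outside these lists, the interferon-inducible genes Ifi27l2a (lower) and Ifitm2 (higher) were called. At an unadjusted p under 0.05, 708 genes (6.13%) were higher and 742 (6.42%) lower. In 3850 genes (33.3%) the 2 groups did not overlap, a count that a comparison of 2 against 2 libraries yields readily. The median difference over all genes was 0.01 on the log2(TPM + 1) scale, its quartiles were -0.11 and 0.13, and 105 genes (0.909%) moved by more than 1.

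In all 56 called genes, both labelled Bgn-/- libraries lay on one side of both wild-type libraries, and the pair without protein and the pair with biglycan had the same sign. The call itself favours such agreement, since the spread in the fit comes in part from how far these pairs differ, so it is no separate support. Over all genes the pairs had the same sign in 6438 (55.7%), with a Pearson correlation of 0.22 across genes, or 0.47 across the 5892 genes averaging 10 TPM or more under LPS, where genes are not independent replicates. The wild-type library with lumican and LPS, which took no part in the test, lay on the wild-type side of both labelled Bgn-/- libraries for 53 of the 56 called genes (94.6%), and for 2812 of the 3850 genes without overlap (73.0%). The call favours large differences with a small spread, so the higher share among called genes is no separate support. That library is also from wild-type cells, for which genotype and cell preparation cannot be told apart. The exceptions among the called genes were the gene model Gm38356, the immunoglobulin segment Igkj5 and the histone demethylase gene Kdm4b. Median-of-ratios scaling and quantile normalization each kept 39 of the 56 calls. The genes lost under both were Apoc2, Apoe, Apol7c, Arg1, Fcna, Ifi27l2a, Igkj5, Kdm4b, Loxl2, Mif, Mt2, Pdpn, Pf4, Rps12 and Serf1, Anpep and C3 were lost under the first alone, and Clmp and Gm38356 under the second alone. With the most abundant transcript of each gene, 18 calls were kept, those of Tpsb2, Tpsab1, Cma1, Mcpt4, Cpa3, Retnla, Cxcl5, Tgfbi, Plau, Ly6i, Fabp7 and Kdm4b included. Just inside the threshold lay C3 (adjusted p = 0.0468 by limma) and Loxl2 (0.0482), and just outside it Pirb (0.0510), an inhibitory receptor gene, and C1qb (0.0536), a subunit of complement C1q. Since every treatment of a genotype is represented by one library, the p-values measure how far the pairs depart from each other and not the spread between animals.

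**Figure D1:**
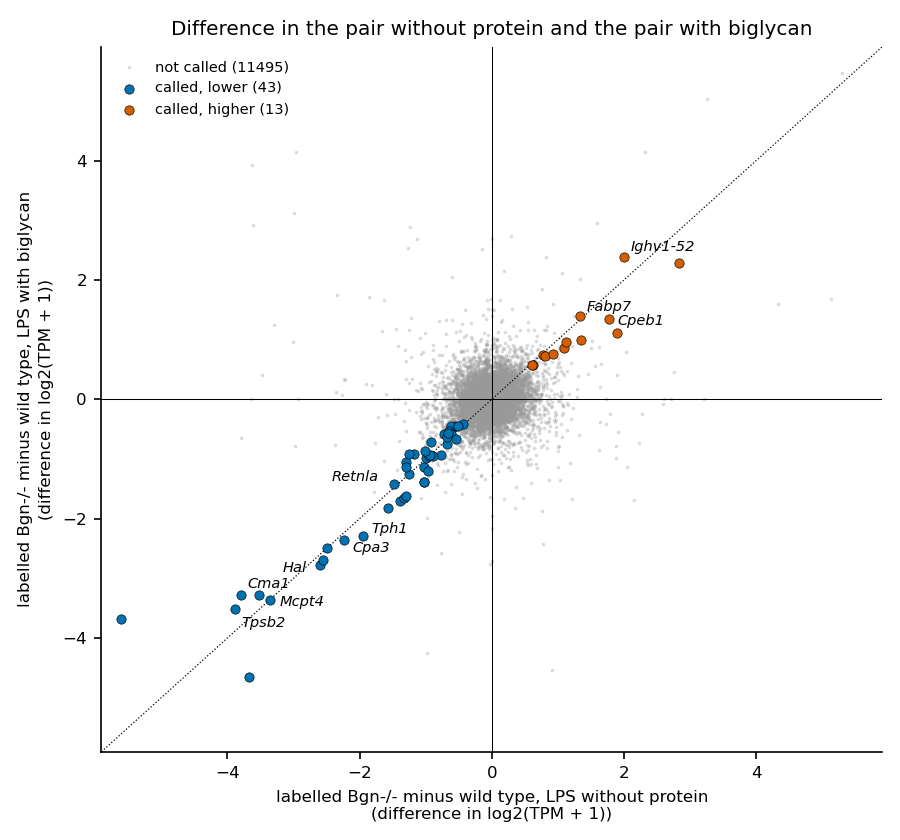
Each point is one of the 11551 genes tested, placed by the difference in log2(TPM + 1) between the labelled Bgn-/- and wild-type libraries in the LPS pair without protein (x axis) and in the LPS pair with biglycan (y axis); called genes are coloured, 43 lower and 13 higher. The called genes lie along the dotted line of equal differences, a position that the call itself favours. Tpsb2, Cma1 and Mcpt4 lie near -3 to -4 on both axes, while most other genes form a cloud around 0.

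Mast cells store tryptases, chymases and carboxypeptidase A3 in their granules, bound to heparin, and their lineage depends on the receptor KIT and the transcription factor GATA2. Promoters of 3 of the protease genes that were lower are shown because these genes moved together; each is the 250 bases before the RefSeq start in GRCm38.p6, read 5′ to 3′ on the gene's own strand, with matches to the GATA core GATAA, on either strand, in capitals.
Cma1, chr14:55944676-55944925, minus strand: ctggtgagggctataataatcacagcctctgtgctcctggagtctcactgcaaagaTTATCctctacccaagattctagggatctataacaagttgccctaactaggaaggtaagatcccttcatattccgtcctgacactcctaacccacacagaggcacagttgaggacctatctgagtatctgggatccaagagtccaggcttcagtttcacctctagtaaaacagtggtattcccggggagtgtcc
Mcpt4, chr14:56062311-56062560, minus strand: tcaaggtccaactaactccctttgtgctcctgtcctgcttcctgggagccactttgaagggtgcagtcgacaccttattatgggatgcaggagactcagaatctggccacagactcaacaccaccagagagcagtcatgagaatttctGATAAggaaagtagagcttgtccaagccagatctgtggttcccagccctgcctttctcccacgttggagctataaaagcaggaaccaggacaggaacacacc
Cpa3, chr3:20242182-20242431, minus strand: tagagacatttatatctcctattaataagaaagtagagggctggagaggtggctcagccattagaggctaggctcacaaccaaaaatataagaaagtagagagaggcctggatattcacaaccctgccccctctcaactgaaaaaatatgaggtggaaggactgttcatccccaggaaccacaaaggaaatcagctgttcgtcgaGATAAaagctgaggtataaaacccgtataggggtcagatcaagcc
Each window held 1 match, on the reverse strand in Cma1, where it reads TTATC. The same motif was found in 22.6% of all 32851 promoter windows of this length, and in neither of the 2 windows listed for Tph1, so a match is a description only. No window was listed for Tpsb2 and Tpsab1.

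Tpsb2 (chromosome 17, 25366305 to 25369098), which encodes a mast cell tryptase, was at 0.816 and 1.62 TPM in the labelled Bgn-/- libraries, against 25.9 and 29.0 TPM in wild type. The log2 difference was -3.70 ± 0.15 (SE), the labelled Bgn-/- mean was 4.43% of the wild-type mean, and limma gave an adjusted p of 0.00190. Its neighbour Tpsab1 (chromosome 17, 25343245 to 25345562), a second tryptase gene, was at 0.386 and 0.721 TPM in the labelled Bgn-/- libraries, against 14.96 and 15.7 TPM in wild type, a difference of -3.40 ± 0.21 (limma, adjusted p = 0.00347). The 2 tryptase genes are close copies, so the split of reads between them is uncertain, but the groups were far apart for both.

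Cma1 (chromosome 14, 55941451 to 55944675), the gene of mast cell chymase, was at 0.572 and 1.68 TPM in the labelled Bgn-/- libraries, against 20.8 and 24.9 TPM in wild type, with a difference of -3.53 ± 0.20 and an adjusted p of 0.00347 by limma. Mcpt4 (chromosome 14, 56059629 to 56062313), another chymase gene of connective-tissue mast cells, was at 0.161 and 0.411 TPM in the labelled Bgn-/- libraries, against 10.9 and 13.5 TPM in wild type, a difference of -3.36 ± 0.26 (limma, adjusted p = 0.00683). The carboxypeptidase gene Cpa3 (chromosome 3, 20215620 to 20242181) was at 0.312 and 0.490 TPM in the labelled Bgn-/- libraries, against 5.16 and 6.63 TPM in wild type, a difference of -2.29 ± 0.16 (limma, adjusted p = 0.00353). For each of these protease genes the labelled Bgn-/- libraries were under 2 TPM, and the lower wild-type library was at least 5.16 TPM. Tph1, the tryptophan hydroxylase that makes serotonin in mast cells, was at 0.572 and 0.700 TPM in the labelled Bgn-/- libraries, against 5.03 and 7.33 TPM in wild type, a difference of -2.12 ± 0.24 (limma, adjusted p = 0.0250). The Tph1 difference was -1.94 in the pair without protein and -2.29 in the pair with biglycan, and on the pair without protein alone its call was lost. In the 5 protease genes the differences of the pairs ran from -2.23 to -3.89.

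Of the 14 mast cell markers, 8 were tested, 5 were called, all lower, and none was called higher. Over all genes tested, 0.372% were called lower, and the list was chosen with earlier results of these data known. Their median difference was -2.83, beside 0.01 over all genes tested. Kit, the receptor of stem cell factor, was at 0.563 and 0.259 TPM in the labelled Bgn-/- libraries, against 1.14 and 2.09 TPM in wild type, a difference of -0.87 ± 0.27 that was not called (limma, adjusted p = 0.265), and Gata2 was at 0.564 and 0.184 TPM in the labelled Bgn-/- libraries, against 0.961 and 1.90 TPM in wild type. Fcer1a and Ms4a2, chains of the IgE receptor, Mrgprb1, Mrgprb2 and Cma2 were under 1 TPM in all 4 libraries. Hdc, the histidine decarboxylase that makes histamine in mast cells and is also made by stimulated macrophages, differed from the proteases, at 153 and 136 TPM in the labelled Bgn-/- libraries, against 128 and 126 TPM in wild type, a difference of 0.18 ± 0.10 (limma, adjusted p = 0.507). The summed level of the whole list was 158 and 142 TPM in the labelled Bgn-/- libraries, against 211 and 223 TPM in wild type. Without Hdc, a choice made after its values were seen, the sum was 4.51 and 6.16 TPM, against 83.0 and 96.7 TPM. In bulk RNA, fewer mast cells and less RNA of these genes per cell cannot be told apart.

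The other libraries of the series gave the same genes as follows. The third wild-type LPS library had Tpsb2 at 29.5 TPM and Cma1 at 25.9 TPM, close to the other wild-type values. In the libraries labelled Lum-/-, Tpsb2 was at 3.96 TPM with LPS and 1.94 TPM with lumican and LPS, nearer to the labelled Bgn-/- values than to wild type. The untreated wild-type library had Tpsb2 at 1.13 TPM and Cma1 at 1.03 TPM, and wild-type cells given biglycan alone had 39.2 and 20.5 TPM. Mast cell genes were thus not high in every wild-type library.

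**Figure D2:**
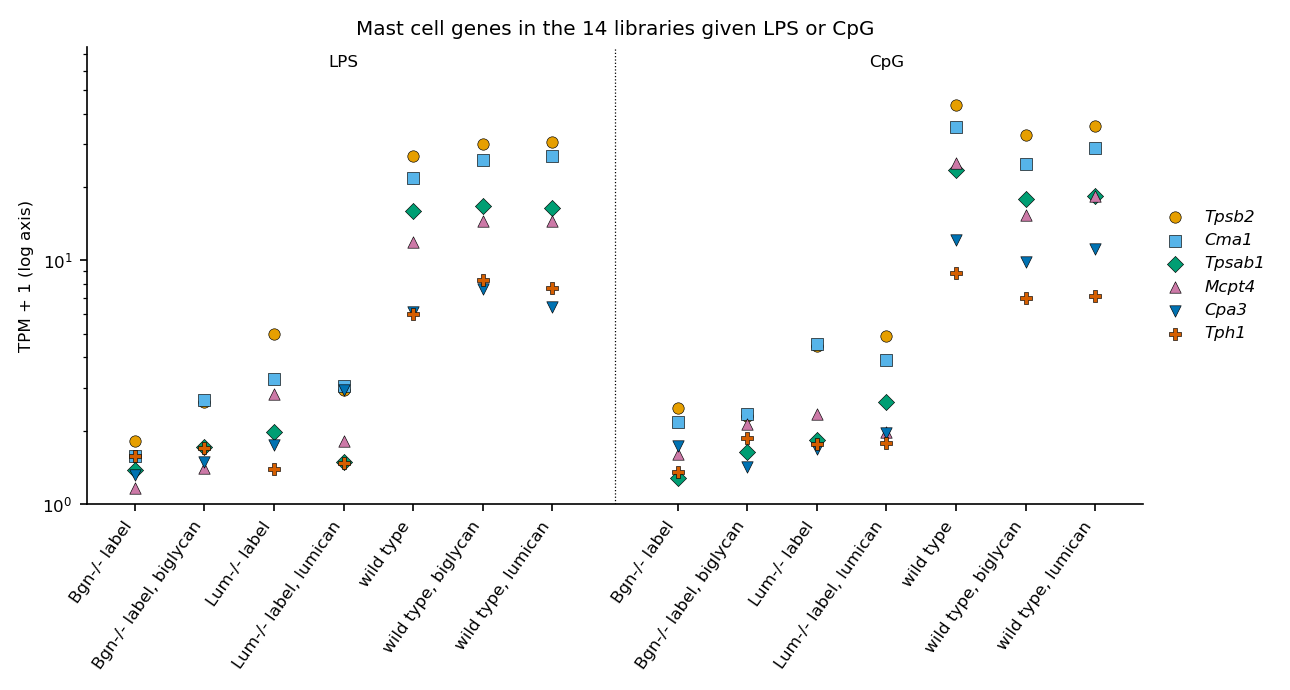
TPM + 1 on a log axis of 6 mast cell genes (symbols) in each of the 14 libraries that received LPS (left) or CpG (right), by genotype label and protein. All 6 genes lie higher in the 6 wild-type libraries than in the labelled Bgn-/- libraries with either stimulus, where Tpsb2 reaches 1.62 TPM with LPS.

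Hal, which encodes histidine ammonia-lyase, the first enzyme of histidine breakdown, had the largest difference of the called genes with a proper symbol outside the mast cell markers (chromosome 10, 93488768 to 93519304). It was at 0.324 and 0.297 TPM in the labelled Bgn-/- libraries, against 6.80 and 7.37 TPM in wild type. The difference was -2.62 ± 0.15 (limma, adjusted p = 0.00347), and neither group's values came near the other's. Libraries labelled Lum-/- had 88.2 TPM with LPS and 92.3 TPM with lumican and LPS, above both groups compared here. When only the most abundant transcript of each gene was used, the Hal difference was -1.58 and was no longer called (limma, adjusted p = 0.0885). Hal lies within 20 Mb of Lum, and it was the single called gene among 220 tested there (0.455%, beside 0.485% over all genes tested). Elsewhere on chromosome 10, 4 of 328 tested genes were called (1.22%). Within 20 Mb of Bgn on chromosome X, none of 77 tested genes was called and 13 had an unadjusted p under 0.05, beside 12.6% over all genes tested. On the rest of chromosome X, none of 258 was called and 22 had an unadjusted p under 0.05.

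Alternatively activated macrophages, as arise with IL-4, are marked in the mouse by Retnla, Arg1, Chil3 and Mrc1. Their list, chosen with earlier results of these data known, had 8 members tested and 2 called, both lower, beside 0.372% called lower over all genes tested. Of the 8, 6 were below 0, and the median difference was -0.41, the lowest of the 33 pathway lists. Retnla, a secreted resistin-like protein gene induced through STAT6, is shown with its promoter because it had the largest difference of the list. The window is the 250 bases before the RefSeq start (GRCm38.p6), with the stretch from TTC to GAA in capitals, 4 bases lying between them, the spacing that STAT6 prefers. The pattern was searched on both strands.
Retnla, chr16:48842359-48842608, plus strand: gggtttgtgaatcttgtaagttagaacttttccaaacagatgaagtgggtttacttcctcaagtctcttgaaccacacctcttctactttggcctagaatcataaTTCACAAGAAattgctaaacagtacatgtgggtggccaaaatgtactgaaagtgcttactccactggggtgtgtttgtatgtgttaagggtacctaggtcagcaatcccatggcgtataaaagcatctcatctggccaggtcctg
This pattern was present in 5.85% of all promoter windows, and the match shows no binding.

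Retnla (chromosome 16, 48842551 to 48844461) was at 27.7 and 25.7 TPM in the labelled Bgn-/- libraries, against 79.1 and 70.2 TPM in wild type. The labelled Bgn-/- libraries held 35.8% of the wild-type mean, a difference of -1.45 ± 0.09 (limma, adjusted p = 0.00347). Arg1, the arginase gene that competes with nitric oxide synthase for arginine, was at 2.94 and 1.17 TPM in the labelled Bgn-/- libraries, against 6.82 and 3.31 TPM in wild type. Its level also differed between protein treatments, and the groups were separated by little (difference -0.99 ± 0.12, limma adjusted p = 0.0359). On either pair alone the Arg1 call was lost. Chil3, a chitinase-like lectin gene, was at 2.59 and 2.78 TPM in the labelled Bgn-/- libraries, against 6.24 and 5.40 TPM in wild type without being called (difference -0.89 ± 0.14, limma adjusted p = 0.0826), and so was Mrc1, the mannose receptor gene, at 1.43 and 1.15 TPM in the labelled Bgn-/- libraries, against 2.25 and 2.02 TPM in wild type (limma, adjusted p = 0.400). Retnla is also a marker of small peritoneal macrophages. Of that marker list, 9 of 12 were tested, Retnla alone was called, and the summed level was 527 and 545 TPM in the labelled Bgn-/- libraries, against 585 and 628 TPM in wild type. Ccr2, Cd226 and Cx3cr1 were under 1 TPM in all 4 libraries. The part of such cells in the Retnla difference was not tested.

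The called chemokine genes were Cxcl5 and Pf4, both lower in the labelled Bgn-/- libraries. Cxcl5 (chromosome 5, 90759360 to 90761624), a chemokine gene for neutrophils, was at 77.9 and 82.2 TPM in the labelled Bgn-/- libraries, against 145 and 159 TPM in wild type, a difference of -0.92 ± 0.08 (limma, adjusted p = 0.00937). Pf4, the gene of platelet factor 4 or CXCL4, was at 1326 and 1418 TPM in the labelled Bgn-/- libraries, against 1896 and 1935 TPM in wild type, a smaller difference of -0.48 ± 0.06 (limma, adjusted p = 0.0322). The labelled Bgn-/- libraries were the lower ones for both, and on either pair alone the Pf4 call was lost. Of the other platelet and red cell markers, Ppbp, a platelet chemokine gene, was at 1.31 and 1.69 TPM in the labelled Bgn-/- libraries, against 2.41 and 1.64 TPM in wild type, with overlapping groups, and the remaining ones, Itga2b and Gp9 among them, were under 1 TPM in all 4 libraries.

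Tgfbi (chromosome 13, 56609523 to 56639562), a matrix protein gene induced by TGF-beta, was the one called member among 11 tested of the proteoglycan and matrix list. It was at 12.997 and 12.8 TPM in the labelled Bgn-/- libraries, against 33.4 and 29.5 TPM in wild type, a difference of -1.22 ± 0.08 (limma, adjusted p = 0.00353). Plau, the urokinase gene of the fibrinolytic system, was at 17.5 and 19.7 TPM in the labelled Bgn-/- libraries, against 36.4 and 36.6 TPM in wild type, a difference of -0.94 ± 0.09 (limma, adjusted p = 0.0143). Both genes were in the labelled Bgn-/- libraries at about the same level with and without biglycan. C3, the central component of complement, was at 233 and 221 TPM in the labelled Bgn-/- libraries, against 358 and 301 TPM in wild type, and Fcna, a ficolin gene of the lectin pathway chosen after its values were seen, at 118 and 119 TPM in the labelled Bgn-/- libraries, against 185 and 171 TPM in wild type. Their differences of -0.53 ± 0.07 and -0.58 ± 0.07 were called (limma, adjusted p = 0.0468 and 0.0321), and both calls were lost on either pair alone. Among the 16 tested genes of the acute-phase and complement list, 13 were below 0 and the median was -0.23. In that direction 8 had an unadjusted p under 0.05, beside 6.42% over all genes tested. Of these, the complement genes C1qb, at 95.1 and 68.3 TPM in the labelled Bgn-/- libraries, against 131 and 102 TPM in wild type, and C1qc, at 47.7 and 39.2 TPM in the labelled Bgn-/- libraries, against 66.5 and 55.9 TPM in wild type, were not called, nor was Saa1, at 4.81 and 3.05 TPM in the labelled Bgn-/- libraries, against 9.34 and 9.96 TPM in wild type. Saa3, the most abundant gene of every library, was at 104840.0 and 88638 TPM in the labelled Bgn-/- libraries, against 103740.0 and 96689 TPM in wild type and did not pass the test (limma, adjusted p = 0.782).

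Apoe, the apolipoprotein E gene through which macrophages release cholesterol, was the most abundant of the called genes. It was at 3880.2 and 3838 TPM in the labelled Bgn-/- libraries, against 5246 and 5119.7 TPM in wild type, a difference of -0.43 ± 0.05 (limma, adjusted p = 0.0354), and its neighbour Apoc2, chosen after its values were seen, was at 6.69 and 5.17 TPM in the labelled Bgn-/- libraries, against 14.6 and 12.5 TPM in wild type (difference -1.08 ± 0.11, limma adjusted p = 0.0205). The labelled Bgn-/- libraries lay below wild type for both. On either pair alone the Apoe call was lost, and on the pair without protein alone the Apoc2 call was lost. Of the 12 tested genes of the oxysterol and cholesterol efflux list, Apoe was the one called. Ch25h, which makes 25-hydroxycholesterol, was at 322 and 185 TPM in the labelled Bgn-/- libraries, against 556 and 288 TPM in wild type and not called (limma, adjusted p = 0.0664).

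Among the remaining lower genes, Ly6i, a GPI-anchored Ly6 family gene with close copies nearby, was at 159 and 133 TPM in the labelled Bgn-/- libraries, against 381 and 316 TPM in wild type, a difference of -1.25 ± 0.08 (limma, adjusted p = 0.00353). Ifi27l2a, an interferon-inducible gene, was at 182 and 148 TPM in the labelled Bgn-/- libraries, against 435 and 281 TPM in wild type (difference -1.08 ± 0.14, limma adjusted p = 0.0387). Stfa3, a stefin gene for a cysteine protease inhibitor in a family of near-identical copies, was at 12.3 and 10.1 TPM in the labelled Bgn-/- libraries, against 26.1 and 27.9 TPM in wild type (difference -1.20 ± 0.13, limma adjusted p = 0.0205). For Ly6i the difference was -1.26 in the pair without protein and -1.25 in the pair with biglycan. The Ifi27l2a call was lost on the biglycan pair alone, and the Stfa3 call on the pair without protein alone. Espl1, which encodes separase, the protease that releases sister chromatids, was at 2.42 and 1.00 TPM in the labelled Bgn-/- libraries, against 7.37 and 3.15 TPM in wild type (difference -1.17 ± 0.14, limma adjusted p = 0.0305). Its call too was lost on the biglycan pair alone, and of the 24 tested cell cycle genes none was called.

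Further called genes on the lower side, all picked out after their values were seen, encode cell surface proteins. P2rx7, the ATP-gated channel that triggers the NLRP3 inflammasome, was at 8.92 and 9.23 TPM in the labelled Bgn-/- libraries, against 17.9 and 18.6 TPM in wild type, a difference of -0.93 ± 0.10 (limma, adjusted p = 0.0203). Ms4a4a, a membrane protein of macrophages, was at 258 and 245 TPM in the labelled Bgn-/- libraries, against 488 and 402 TPM in wild type, a difference of -0.81 ± 0.08 (limma, adjusted p = 0.0150). Cd33, an inhibitory sialic acid receptor, was at 75.4 and 74.5 TPM in the labelled Bgn-/- libraries, against 121 and 126 TPM in wild type, a difference of -0.72 ± 0.07 (limma, adjusted p = 0.0203). In each the groups were separated by more than the gap within either group. Cd1d1, which presents lipids to NKT cells, Pdpn (podoplanin), Anpep (aminopeptidase N) and Clmp, an adhesion molecule, had differences of -0.65, -0.62, -0.50 and -0.84. Within cells, Osbpl3, an oxysterol-binding protein family gene, Glrx (glutaredoxin), Mif (macrophage migration inhibitory factor, which is also secreted) and Serf1 had differences of -0.65, -0.60, -0.60 and -1.08. Of these 11 genes, all but Ms4a4a lost the call on at least 1 of the pairs alone.

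**Figure D3:**
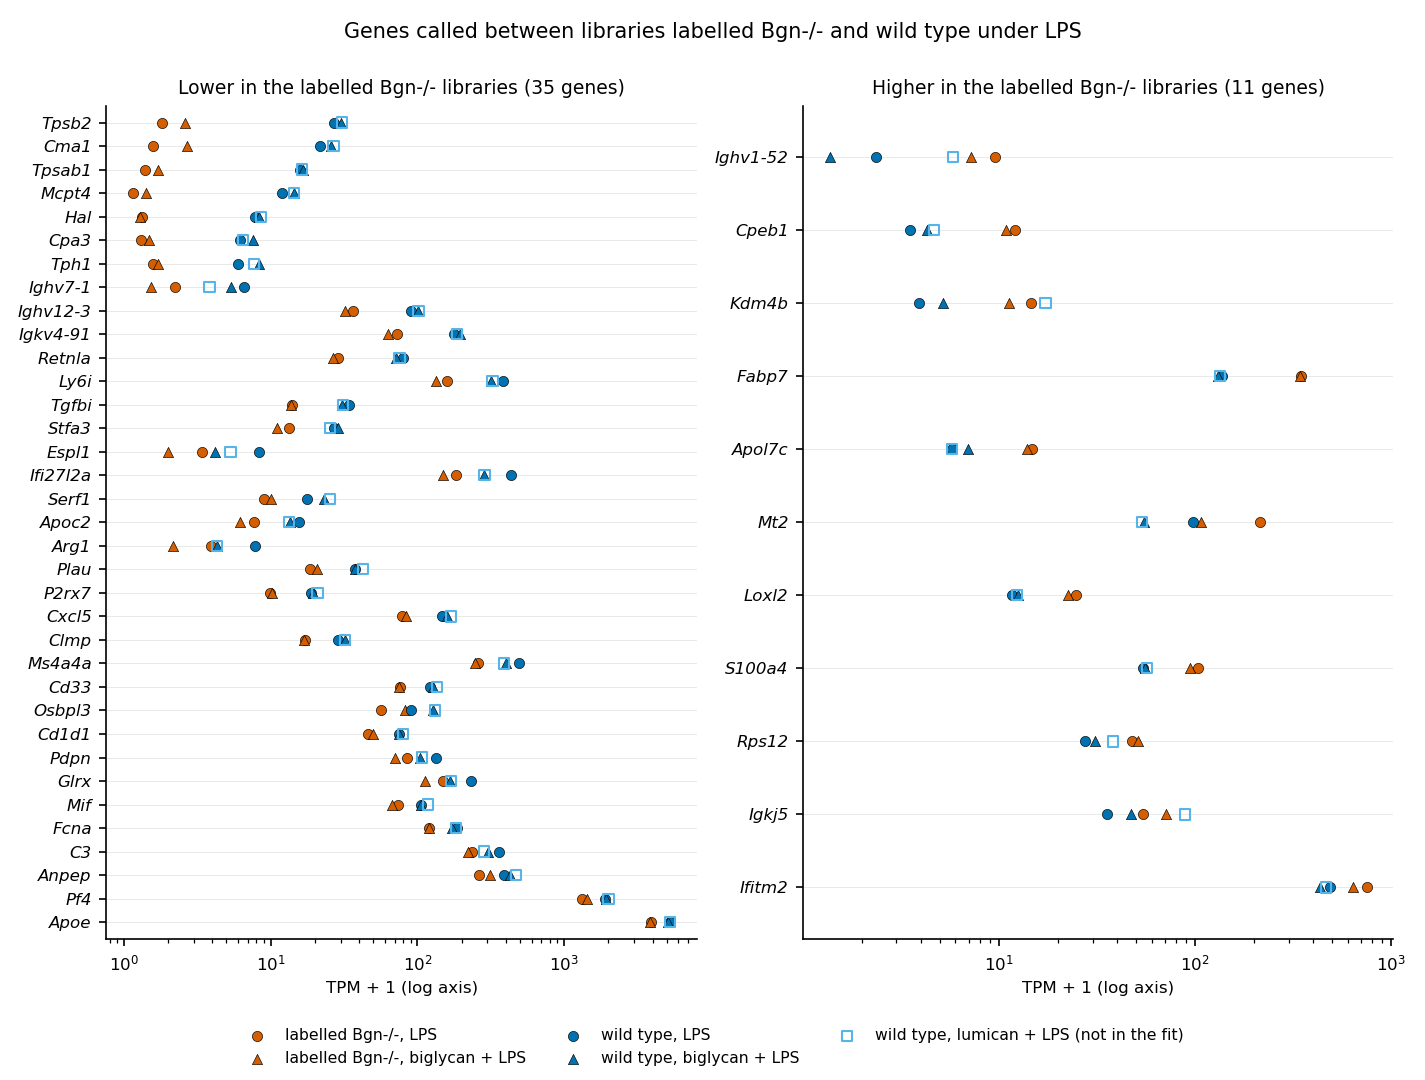
TPM + 1 on a log axis in each LPS library for the called genes with a proper symbol, 35 lower (left) and 11 higher (right) in the labelled Bgn-/- libraries, ordered by the size of the difference; the axes of the panels differ. Circles stand for the libraries without protein and triangles for those with biglycan, while open squares, the wild-type library with lumican and LPS that took no part in the test, lie on the wild-type side of both labelled Bgn-/- libraries in all of these genes except Kdm4b and Igkj5.

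On the higher side, Fabp7 (chromosome 10, 57784881 to 57788450), a fatty acid binding protein gene best known from brain, had even values within each group. It was at 345 and 343 TPM in the labelled Bgn-/- libraries, against 137 and 131 TPM in wild type, 2.57 times the wild-type mean, a difference of 1.36 ± 0.07 (limma, adjusted p = 0.00347). The library with biglycan differed from the one without by less than 2 TPM in the labelled Bgn-/- pair. S100a4, a calcium-binding protein gene of motile cells, was at 102 and 93.6 TPM in the labelled Bgn-/- libraries, against 53.0 and 54.6 TPM in wild type, a difference of 0.85 ± 0.08 (limma, adjusted p = 0.0182). Loxl2, a lysyl oxidase that cross-links collagen, was at 23.8 and 21.6 TPM in the labelled Bgn-/- libraries, against 10.7 and 11.5 TPM in wild type, a difference of 0.97 ± 0.13 (limma, adjusted p = 0.0482). The groups were separated in all 3 genes, but on the biglycan pair alone the S100a4 call was at the edge of the threshold. On either pair alone the Loxl2 call was lost.

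Cpeb1 (chromosome 7, 81347026 to 81455465), which encodes a protein that controls poly(A) tails and translation, was at 11.1 and 9.91 TPM in the labelled Bgn-/- libraries, against 2.52 and 3.29 TPM in wild type, a difference of 1.56 ± 0.14 (limma, adjusted p = 0.0128). Apol7c, an apolipoprotein L family gene, was at 13.7 and 12.9 TPM in the labelled Bgn-/- libraries, against 4.79 and 5.99 TPM in wild type, a difference of 1.17 ± 0.14 (limma, adjusted p = 0.0288). Kdm4b, a demethylase of histone H3, was at 13.5 and 10.3 TPM in the labelled Bgn-/- libraries, against 2.90 and 4.21 TPM in wild type, a difference of 1.51 ± 0.19 (limma, adjusted p = 0.0396). For Kdm4b the third wild-type LPS library, at 16.3 TPM, lay above both labelled Bgn-/- libraries, so the separation does not hold over the 3 wild-type libraries, whereas for Cpeb1 and Apol7c that library was at 3.66 and 4.74 TPM, with wild type. The Cpeb1 call was lost when only the most abundant transcript was used (difference 1.12, limma adjusted p = 0.218), and the Kdm4b call after median-of-ratios scaling or quantile normalization (0.0981 and 0.0967). The Apol7c call was lost on the biglycan pair alone. Ifitm2, an interferon-inducible antiviral membrane protein gene, was at 748 and 639 TPM in the labelled Bgn-/- libraries, against 485 and 431 TPM in wild type. Its difference was 0.60 ± 0.06 (limma, adjusted p = 0.0194), and its call too was lost on the biglycan pair alone. Rps12, a ribosomal protein gene with many processed copies, was at 46.9 and 50.4 TPM in the labelled Bgn-/- libraries, against 26.4 and 30.05 TPM in wild type, a difference of 0.77 ± 0.10 (limma, adjusted p = 0.0404). Its most abundant transcript alone gave a difference of 0.04, so the Rps12 value depends on how reads were shared among transcripts. On either pair alone the Rps12 call was lost.

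Metallothioneins bind zinc and other metals, and their genes are switched on by the factor MTF1 at short metal response elements. Mt2 is shown with the 250 bases before its RefSeq start (GRCm38.p6) because it was the one called gene of the metallothionein and iron list; matches to TGCNCNC, a loose form of the element's core, are in capitals on either strand.
Mt2, chr8:94172368-94172617, plus strand: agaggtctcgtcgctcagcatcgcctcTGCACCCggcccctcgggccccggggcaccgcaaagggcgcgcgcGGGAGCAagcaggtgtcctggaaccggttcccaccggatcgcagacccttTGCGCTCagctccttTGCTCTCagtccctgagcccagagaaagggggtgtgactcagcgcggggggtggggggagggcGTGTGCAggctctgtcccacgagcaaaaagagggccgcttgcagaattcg
The window held 5 sites, 3 forward and 2 reverse, and 44.4% of all promoter windows held at least 1. Mt2 (chromosome 8, 94172664 to 94173568) was at 213 and 106 TPM in the labelled Bgn-/- libraries, against 96.7 and 54.0 TPM in wild type, a difference of 1.04 ± 0.10 (limma, adjusted p = 0.0168). Biglycan treatment went with lower values in both genotypes, and the labelled Bgn-/- library with biglycan was above the wild-type library without it by less than 10 TPM. Mt1 was at 234 and 200.5 TPM in the labelled Bgn-/- libraries, against 166 and 147 TPM in wild type, in the same direction but not called (limma, adjusted p = 0.119). Libraries labelled Lum-/- had Mt2 at 227 TPM with LPS and 127 TPM with lumican and LPS. After median-of-ratios scaling or quantile normalization Mt2 was no longer called (limma, adjusted p = 0.0603 and 0.0631).

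Immunoglobulin V genes, whose transcripts come from B lineage cells, held 4 called genes among 147 tested (2.72%, beside 0.485% over all genes tested). Of these, 1 was higher and 3 were lower. Ighv12-3 was at 35.1 and 31.0 TPM in the labelled Bgn-/- libraries, against 89.8 and 100.1 TPM in wild type (difference -1.49 ± 0.10, limma adjusted p = 0.00353) and Igkv4-91 at 71.7 and 62.4 TPM in the labelled Bgn-/- libraries, against 178 and 193 TPM in wild type (difference -1.46 ± 0.09, limma adjusted p = 0.00353). Ighv1-52 was at 8.50 and 6.17 TPM in the labelled Bgn-/- libraries, against 1.38 and 0.378 TPM in wild type (difference 2.19 ± 0.15, limma adjusted p = 0.00353), with the third wild-type LPS library at 4.81 TPM between the groups. The V segments are alike, so their split of reads is uncertain. Summed over all tested V genes, levels were 1216 and 1221 TPM in the labelled Bgn-/- libraries, against 1134 and 1418 TPM in wild type, and overlapped. None of the 10 tested B cell markers was called, 9 were below 0, and their median was -0.17. The 13 B cell markers summed to 468.0 and 468.0 TPM, against 432 and 592 TPM, with Cd5 and Vpreb3 under 1 TPM in all 4 libraries. A further 10 called genes were gene models, clones or pseudogenes, 8 lower and 2 higher, and are not described.

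**Figure D4:**
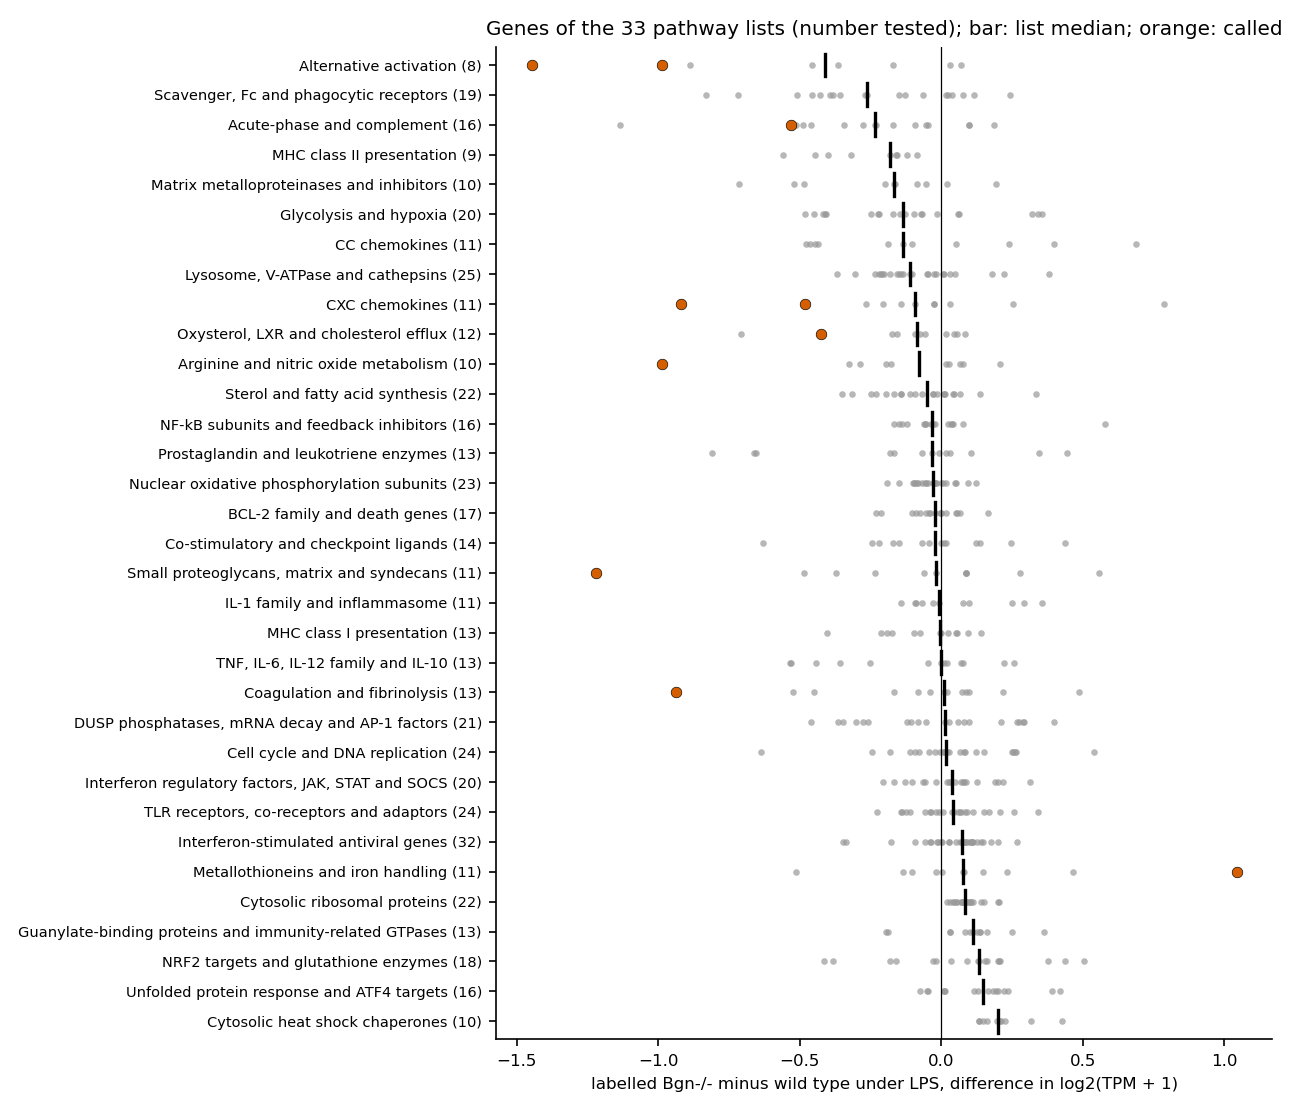
Differences in log2(TPM + 1) under LPS, labelled Bgn-/- minus wild type, of the tested genes in each of 33 pathway lists, with the number tested in brackets; black bars are list medians and orange points called genes. Medians run from -0.41 for alternative activation to 0.20 for cytosolic chaperones, 29 of the 33 lie within 0.2 of 0, and 25 lists hold no called gene.

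Of 554 genes in 33 pathway lists, 524 were tested and 9 were called (1.72%, beside 0.485% over all genes tested), 8 lower and 1 higher, in 8 of the lists. The receptors and adaptors of LPS held none among 24 tested, and their median was 0.04. Tlr4 (chromosome 4, 66827584 to 66930284) was at 62.3 and 70.4 TPM in the labelled Bgn-/- libraries, against 50.8 and 53.4 TPM in wild type, a difference of 0.34 ± 0.08 with a 95% interval of 0.15 to 0.54 that was not called (limma, adjusted p = 0.192). Ly96, the gene of MD-2, was at 65.9 and 65.9 TPM in the labelled Bgn-/- libraries, against 55.6 and 54.5 TPM in wild type and Cd14 at 2246 and 2354 TPM in the labelled Bgn-/- libraries, against 1951 and 2315 TPM in wild type, neither being called (limma, adjusted p = 0.253 and 0.583). For Tlr4 and Ly96 both labelled Bgn-/- libraries were above both wild-type libraries, whereas for Cd14 the groups overlapped.

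Cytokine genes of the TNF, IL-6 and IL-12 families had 13 members tested and none called, with a median of -0.00. Il6 was at 3515 and 3426 TPM in the labelled Bgn-/- libraries, against 3334 and 3279 TPM in wild type, a difference of 0.07 ± 0.10 (95% interval -0.18 to 0.32). Tnf was at 3549 and 4268 TPM in the labelled Bgn-/- libraries, against 4103 and 6808 TPM in wild type (difference -0.44 ± 0.11) and Csf3, the granulocyte factor gene, at 435 and 358 TPM in the labelled Bgn-/- libraries, against 544 and 597 TPM in wild type (difference -0.53 ± 0.12), with adjusted p-values of 0.196 and 0.184 by limma. Csf3 groups did not overlap, and Tnf groups did. In the IL-1 and inflammasome list, none of 11 was called, and Il1b was at 17694 and 17183 TPM in the labelled Bgn-/- libraries, against 16325 and 19346 TPM in wild type. The 16 tested NF-kB subunits and inhibitors held none called either, and their median was -0.03.

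Among CC chemokines, none of 11 tested was called and the median was -0.13. Ccl2 was at 2296 and 1586 TPM in the labelled Bgn-/- libraries, against 3862 and 1727 TPM in wild type and Ccl17, a chemokine for T cells, at 11.3 and 11.8 TPM in the labelled Bgn-/- libraries, against 5.79 and 7.88 TPM in wild type, and their differences of -0.44 ± 0.14 and 0.69 ± 0.17 did not pass (limma, adjusted p = 0.297 and 0.204). The 11 tested CXC chemokines held the called Cxcl5 and Pf4. Cxcl1, a chemokine gene for neutrophils, was at 9182 and 11217 TPM in the labelled Bgn-/- libraries, against 6954 and 10410.0 TPM in wild type without a call (limma, adjusted p = 0.353). Ccl2 and Cxcl1 values overlapped between the groups.

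Interferon-stimulated antiviral genes had 32 members tested, none called and none at an unadjusted p under 0.05, beside 12.6% over all genes. The list does not include the called Ifi27l2a and Ifitm2. Its median was 0.07, made of -0.14 in the pair without protein and 0.24 in the pair with biglycan. Ifit2 was at 398 and 327 TPM in the labelled Bgn-/- libraries, against 655 and 322 TPM in wild type, where the wild-type library without protein stood above the other 3. The guanylate-binding proteins and immunity-related GTPases followed the same pattern, with none of 13 called and medians of -0.13 and 0.32 in the pairs. Of the 20 interferon regulatory factor, JAK, STAT and SOCS genes, none was called, and Irf1 was at 251 and 238 TPM in the labelled Bgn-/- libraries, against 236 and 237 TPM in wild type.

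Receptors for uptake and antigen presentation were mostly below 0. In the scavenger and Fc receptor list 19 were tested, 13 were below 0, and none was called, with a median of -0.26. Of those below 0, 8 had an unadjusted p under 0.05, beside 6.42% lower over all genes tested. Stab1, the gene of stabilin-1, was at 3.29 and 4.59 TPM in the labelled Bgn-/- libraries, against 8.23 and 7.21 TPM in wild type (limma, adjusted p = 0.143) and Msr1, a scavenger receptor gene, in the other direction at 1244 and 1215 TPM in the labelled Bgn-/- libraries, against 1119 and 965 TPM in wild type (limma, adjusted p = 0.232). All 9 tested MHC class II genes were below 0, none was called, and the median was -0.18, with -0.00 in the pair without protein and -0.40 in the pair with biglycan. The B cell markers, whose cells also express class II, had medians of 0.06 and -0.34 in the same pairs, and their part in these values was not tested. H2-Ab1, a class II beta chain gene, was at 284 and 253 TPM in the labelled Bgn-/- libraries, against 336 and 373 TPM in wild type. MHC class I genes had 13 tested, none called and a median of -0.01.

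Stress and housekeeping lists had small median differences. All 10 tested cytosolic chaperone genes were above 0, with a median of 0.20 and none called. Of these, 4 had an unadjusted p under 0.05, beside 6.13% higher over all genes tested. Hsp90aa1 was at 450.1 and 465 TPM in the labelled Bgn-/- libraries, against 383 and 351 TPM in wild type. Unfolded protein response and ATF4 target genes had 16 tested, 13 above 0, none called and a median of 0.15. NRF2 targets had 18 tested and none called, among them Srxn1, the sulfiredoxin gene, at 500.0 and 626 TPM in the labelled Bgn-/- libraries, against 371 and 418 TPM in wild type (difference 0.50 ± 0.07, limma adjusted p = 0.0664). The ribosomal protein list, which does not include the called Rps12, had 22 tested, all above 0 with a median of 0.08, and none called. Glycolysis genes had 15 of 20 below 0 and none called, with Ldha, lactate dehydrogenase, at 193 and 184 TPM in the labelled Bgn-/- libraries, against 244 and 273 TPM in wild type (limma, adjusted p = 0.0950). The lists of oxidative phosphorylation (23 tested), lysosome (25), sterol synthesis (22), matrix metalloproteinases (10) and death genes (17) held no called gene. Neither did those of prostaglandin enzymes (13), co-stimulatory ligands (14) and mitogen phosphatases and AP-1 factors (21), whose medians lay between -0.03 and 0.01. At an unadjusted p under 0.05, 5 unfolded protein response genes were higher and 0 lower, and 7 NRF2 targets higher and 3 lower. By the same measure, glycolysis had 1 higher and 6 lower, lysosome 2 and 6, metalloproteinases 1 and 4, and ribosomal proteins 3 and 0. Over all genes tested, 6.13% were higher and 6.42% lower.

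Markers of other cells gave these levels. The 12 T and NK cell markers summed to 10.3 and 8.43 TPM in the labelled Bgn-/- libraries, against 9.27 and 12.6 TPM in wild type, and 9 of them, Cd3e and Ncr1 included, were under 1 TPM in all 4. Neutrophil markers summed to 603 and 683 TPM, against 584 and 573 TPM, carried by S100a8 and Csf3r, while Ly6g, Mpo and S100a9 were under 1 TPM and Elane at 0. Eosinophil and basophil markers summed to 3.75 and 2.62 TPM, against 3.17 and 4.07 TPM, with Epx and Mcpt8 at 0. Mesothelial and fibroblast markers summed to 11.3 and 14.7 TPM, against 13.7 and 19.6 TPM, and dendritic cell markers to 792 and 710 TPM, against 954 and 661 TPM, mostly through the interferon-inducible Bst2. In these marker lists no gene was called, and the part of such cells in the differences above was not tested.

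To ask whether the difference between genotypes was particular to LPS, it was set beside the difference under CpG in the same fit. Of the 56 genes called under LPS, 53 had the same sign under CpG, among them all 43 lower genes and 10 of the 13 higher ones, and in 47 the CpG groups did not overlap in the same direction (39.9% of all genes tested did not overlap in either direction under CpG). Under CpG itself 147 genes were called (1.27%), and 36 of the 56 were among them, 64.3% of the LPS calls and 24.5% of the CpG calls. In this fit both effects of a gene have the same SE, which favours calls under both stimuli, so the overlap is not independent support. The mast cell genes were as low under CpG, where Tpsb2 was at 1.47 and 1.30 TPM in the labelled Bgn-/- libraries, against 42.4 and 31.6 TPM in wild type. Retnla was at 44.0 and 37.8 TPM in the labelled Bgn-/- libraries, against 103 and 101 TPM in wild type and Cxcl5 at 29.9 and 29.9 TPM in the labelled Bgn-/- libraries, against 82.6 and 89.7 TPM in wild type, again lower in the labelled Bgn-/- libraries. Some list medians lay further apart. Interferon-stimulated antiviral genes had a median of 0.07 under LPS and -0.88 under CpG. For guanylate-binding proteins these were 0.11 and -0.81, and for CXC chemokines -0.09 and -0.77. The other pathway lists had medians nearer together, and no list was tested as a set. The labels do not say whether the stimuli shared a cell preparation, so these values are not an independent repeat.

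For a few genes called under LPS the CpG values lay closer together. Tgfbi under CpG was at 319 and 181 TPM in the labelled Bgn-/- libraries, against 322 and 199.7 TPM in wild type, a difference of -0.08, against -1.22 under LPS (limma, adjusted p of the difference between the effects = 0.0669). Mt2 was at 38.4 and 30.8 TPM in the labelled Bgn-/- libraries, against 52.8 and 34.1 TPM in wild type (limma, adjusted p of the difference between the effects = 0.0674), and Fabp7 at 93.0 and 93.6 TPM in the labelled Bgn-/- libraries, against 73.2 and 66.1 TPM in wild type (0.0745). P2rx7 was at 41.1 and 36.5 TPM in the labelled Bgn-/- libraries, against 39.4 and 40.0 TPM in wild type and Arg1 at 18.4 and 7.36 TPM in the labelled Bgn-/- libraries, against 19.2 and 7.204 TPM in wild type. None of these contrasts between the stimuli passed the threshold, so a difference restricted to LPS was not established for any called gene.

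The effects of the genotype label differed between LPS and CpG in 6 genes (0.0519%) by limma, and none of them was called under LPS. Ptgs2, the inducible cyclooxygenase gene of prostaglandin synthesis, was under LPS at 2397 and 2443 TPM in the labelled Bgn-/- libraries, against 2334 and 2401 TPM in wild type, with overlapping groups. Under CpG it was at 30.9 and 28.7 TPM in the labelled Bgn-/- libraries, against 72.01 and 72.9 TPM in wild type, so that the effects differed by 1.29 ± 0.09 (limma, adjusted p = 0.0230). Hdc under CpG was at 1.01 and 1.03 TPM in the labelled Bgn-/- libraries, against 6.27 and 6.35 TPM in wild type, an effect of -1.86 beside 0.18 under LPS, a difference of 2.04 ± 0.14 (limma, adjusted p = 0.0230). The neutrophil chemokine gene Cxcl3 was under LPS at 7409 and 9187 TPM in the labelled Bgn-/- libraries, against 7551 and 10231 TPM in wild type and under CpG at 225 and 271 TPM in the labelled Bgn-/- libraries, against 686 and 1125 TPM in wild type, a difference of effects of 1.74 ± 0.15 (limma, adjusted p = 0.0377). Mmp13, a collagenase gene, was under LPS at 362 and 426 TPM in the labelled Bgn-/- libraries, against 406 and 427 TPM in wild type and under CpG at 17.99 and 19.6 TPM in the labelled Bgn-/- libraries, against 45.7 and 49.9 TPM in wild type, a difference of 1.22 ± 0.11 (limma, adjusted p = 0.0377). In these 4 genes the labelled Bgn-/- libraries were below wild type under CpG, and under LPS the differences ran from -0.09 to 0.18. The other 2 were the gene models Gm28661 and Gm14219.

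**Figure D5:**
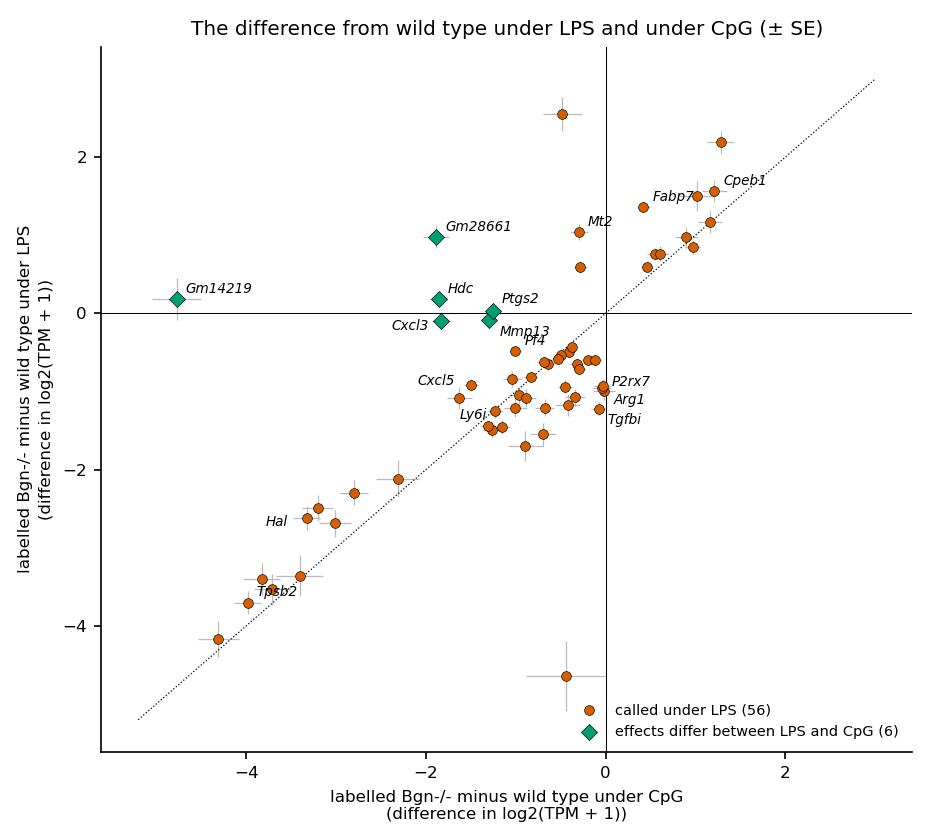
Difference in log2(TPM + 1) between labelled Bgn-/- and wild-type libraries under CpG (x axis) and under LPS (y axis) for the 56 genes called under LPS (circles) and the 6 genes whose effect differed between the stimuli (diamonds), with bars of 1 SE. Most circles lie near the dotted line of equal effects, while Ptgs2, Hdc, Cxcl3 and Mmp13 lie near 0 under LPS and between -1.25 and -1.86 under CpG.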

How the data were processed

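RNA sequencing libraries were made with a stranded TruSeq kit, per the labels' protocols, and the authors deposited one table of TPM values, each a transcript's share of its library scaled for length, for all 21 libraries; kallisto 0.44.0, bcl2fastq 1.8.4 and GRCm38 are named in the submitters' processing notes. A column of row sums deposited by the authors, a score of no sample, was not used. TPM were summed per gene name; of 89562 transcripts, 1350 with no name, holding 5350.5 to 7548.3 TPM per library, were left out. Gene positions are GRCm38 (GENCODE vM21). Genes averaging 1 TPM or more over 8 libraries (labelled Bgn-/- and wild type, without protein or with biglycan, with LPS or CpG) were fitted on log2(TPM + 1), so that folds of low genes are understated. The fit used limma 3.58.1 in R 4.3.3, with mean-variance trend, a genotype and a protein term within each stimulus, and 2 residual degrees of freedom beside 4.3 prior ones. The protein term pairs the libraries, and a pair is no pair of animals. Tests were two-sided, and p-values were adjusted by Benjamini-Hochberg over all 11551 genes at a threshold of 0.05. The fit was tested on simulated data first. Depth is unknown, since TPM carries none, so no counting interval is given. Gene lists, the members and the tests were chosen with earlier results of these data known. Genes were named where called and among the 15 largest each way (at least 5 TPM, not overlapping), called within 20 Mb of Lum or Bgn, first or largest in a list, called in a list, or different between the stimuli; others are marked as chosen after their values were seen. Alternatives were other pseudocounts, filters, scalings, transcripts, library sets and models, and leaving out each library.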

Additional observations from a re-analysis of the deposited data

Results flagged for a closer look

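In 6 genes the effect of the labelled Bgn-/- genotype under LPS differed from that under CpG, by the difference of effects in the same fit (limma, adjusted p under 0.05), beside 1116 genes at an unadjusted p under 0.05. All 6 differences, LPS minus CpG, were positive in this fit. Other fits that called more genes also held negative ones. Among coding genes 24 were positive and 5 negative, and with the 14 libraries given LPS or CpG 31 were positive and 9 negative. Mmp13, the collagenase gene, had a difference of 1.22 ± 0.11 (SE), with effects of -0.08 under LPS and -1.30 under CpG. For Ptgs2, the cyclooxygenase gene, it was 1.29 ± 0.09, from effects of 0.03 and -1.25. The chemokine gene Cxcl3 had 1.74 ± 0.15, from effects of -0.09 and -1.83. Hdc, which makes histamine, had 2.04 ± 0.14, from effects of 0.18 and -1.86. The gene models Gm28661 and Gm14219 had 2.86 ± 0.21 and 4.95 ± 0.38. Mast cell protease genes, set beside Hdc because they share a cell type, did not follow it, Tpsb2 being at -3.70 under LPS and -3.98 under CpG. Whether the values of Hdc come from mast cells or macrophages was not tested. Each stimulus and genotype rests on 2 libraries, and the number of these calls changed with several settings.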

How the results depend on the processing

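The 56 called genes kept their direction in every one of 17 alternatives in which they were tested. Cma1, Fabp7, Ly6i, Mcpt4, Retnla, Tpsab1 and Tpsb2 lost the call with no filter on low values and with all 21 libraries. They lost it in no other fit that kept both LPS pairs. The count of called genes was 0 of 21694 with no filter on low values (1711 at an unadjusted p under 0.05) and 0 with all 21 libraries in the fit (818 at an unadjusted p under 0.05). It was 18 with the most abundant transcript per gene, 12 with the 4 LPS libraries alone, 36 with no protein term and 165 with the 14 libraries given LPS or CpG. With a pseudocount of 0.1 or of 5, a filter at 5 TPM, median-of-ratios scaling, quantile normalization, coding genes and robust moderation it was 39 to 75. Leaving out an LPS library leaves a single pair under LPS, and the spread then comes from the CpG libraries alone. No count of calls is given for these fits, which are no separate checks. There the single library left of a group is assumed to vary like the others. The difference between LPS and CpG was called in 6 genes, in 2 with a pseudocount of 5, 18 with a filter at 5 TPM, 29 among coding genes, 14 with robust moderation, 40 with 14 libraries, and 26 to 50 when one library was left out. It was called in 0 with no filter (1499 at an unadjusted p under 0.05), with median-of-ratios scaling (1184), with the most abundant transcript (1004) and with 21 libraries (486). Within 20 Mb of Lum the count was 1, and it was 2 with a pseudocount of 0.1, 4 with 14 libraries, and 0 with no filter, with the most abundant transcript or with 21 libraries. Within 20 Mb of Bgn it was 0 in every fit that kept both LPS pairs. The cause was not tested. The fit pairs libraries by protein treatment, and the count of 36 is its unpaired form; no pairing by replicate number could be made, since the labels give none. Low genes are limited by an unknown depth.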
